A study of Mus musculus with 6 samples.

Results

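The genes described here are the 10 of the VEGF, angiopoietin and neuropilin families with the symbols Vegfa, Vegfb, Vegfc, Pgf, Angpt1, Angpt2, Flt1, Kdr, Nrp1 and Nrp2. They were chosen by symbol, with earlier results of these data known, and all 10 were found among the 46095 genes of the table. Their transcripts were measured by RNA sequencing in 3T3-L1 cells, a mouse embryonic fibroblast line that accumulates fat in culture, labelled as adipocytes and taken 8 days after differentiation. One group of 3 libraries came from untreated cells, and the other 3 from cells given Smilax glabra flavonoids, a plant extract, at 0.125 μg/mL. The labels name no vehicle for the untreated cells, no duration of treatment and no other agent, and do not state that the libraries within a group are from different cultures. The p-values therefore measure only the spread between these libraries, which may be technical. In such bulk samples, fewer cells of a type and less RNA per cell cannot be told apart.

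VEGF ligands are secreted proteins that bind tyrosine kinase receptors, chiefly on endothelial cells, and drive the growth and permeability of blood and lymph vessels. VEGF-A binds Flt1 and Kdr, VEGF-B and placental growth factor bind Flt1, and VEGF-C and VEGF-D act mainly on lymphatic endothelium. Neuropilins are co-receptors with a short cytoplasmic tail that serve both VEGF ligands and class 3 semaphorins, and angiopoietins bind the receptor Tek. In fat tissue these ligands come largely from the adipocytes and stromal cells, and the receptors sit on the vessels that feed them.

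With flavonoids Vegfb rose and Vegfc fell, while Vegfa, the best known of the ligands, did not pass the test. The neuropilin genes did not pass either, although all 3 treated libraries lay below all untreated ones for Nrp1 and for the ratio of Nrp1 to Nrp2. Over all tested genes, 34.3% did not overlap between groups, and no such share was computed for ratios. Of the 10 genes, 7 averaged 1 FPKM (fragments scaled to transcript length and library total) or more over the 6 libraries and were tested. Of these 7, 1 rose, 1 fell and 5 did not pass (limma with a pseudocount of 1 FPKM, p adjusted by Benjamini-Hochberg over 11464 genes, threshold 0.05). Over all tested genes 9.99% were called, 4.86% as higher and 5.13% as lower, and 7 members are too few for their count to be read against that share. The median log2 change was -0.10 over the 7 genes and -0.02 over all tested genes.

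Library totals, worked back from the steps between FPKM values, ran from 21952064 to 26355863 fragments. The libraries also differed by gene length. For the 2365 tested genes with an implied length of at least 5000 bases, the median log2 deviation from each gene's mean was -0.20, 0.06 and 0.33 in untreated replicates 1, 2 and 3, and 0.01, -0.01 and -0.17 in flavonoids replicates 1, 2 and 3. For the 2553 tested genes under 1500 bases it was 0.23, -0.01 and -0.31 in the untreated replicates. In the flavonoids replicates it was 0.06, 0.06 and -0.02. Of the cell type markers, 6 of 10 adipocyte genes had a mean under 1 FPKM (Adipoq, Plin1, Cd36, Slc2a4, Cidec and Lep), whereas Fabp4, Lpl, Pparg and Cebpa were above it. The log2 changes of these 4 were -0.36, 0.65, 0.10 and -0.26, and none passed in limma. The 10 adipocyte genes summed to 385 to 415 FPKM in untreated and 345 to 518 FPKM in treated cells. Of 14 endothelial markers, 12 had a mean under 1 FPKM. Among these, Cdh5, Tie1, Cldn5, Robo4, Erg and Sox17 were listed at 0 in all 6 libraries, and a listed 0 may stand for a failed count rather than for no fragments. The 14 summed to 5.06 to 7.005 FPKM in untreated and 2.79 to 3.54 FPKM in treated cells, most of it from Egfl7, which fell, and Plvap. Of 6 pericyte markers 4 lay under 1 FPKM, and of 6 macrophage markers 3, with Ptprc at 0. Summed, they gave 80.6 to 127 and 99.2 to 119 FPKM for pericytes, mostly Pdgfrb, a gene that fibroblasts share and that did not pass, and 14.02 to 19.0 and 25.9 to 28.3 FPKM for macrophages, mostly Cd14, which rose. The pericyte marker Notch3, at 8.11 ± 2.74 FPKM untreated and 2.67 ± 0.219 FPKM treated (SD, n = 3 each), fell as well (limma adjusted p = 0.0106). The other tested macrophage markers, Cd68 and Lyz2, did not pass (log2 change -0.16 and -0.04, limma adjusted p = 0.676 and 0.909). The 5 preadipocyte or fibroblast markers (Dlk1, Pdgfra, Thy1, Col1a1 and Ly6a) were each lower in all treated libraries than in any untreated one, with a median log2 change of -0.46, an unadjusted p under 0.05 for all 5 and a call for Thy1 alone (limma adjusted p = 0.0118). Over all tested genes, 34.3% did not overlap between groups and 9.99% were called, and 5 markers are too few to read against these shares. The share of all tested genes with an unadjusted p under 0.05 was not computed. The 5 preadipocyte or fibroblast markers summed to 1308 to 1682 FPKM in untreated and 1022 to 1134 FPKM in treated cells, beside the falls of Vegfc and other genes reported here. The part of such cells in the results below was not tested.

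**Figure D1:**
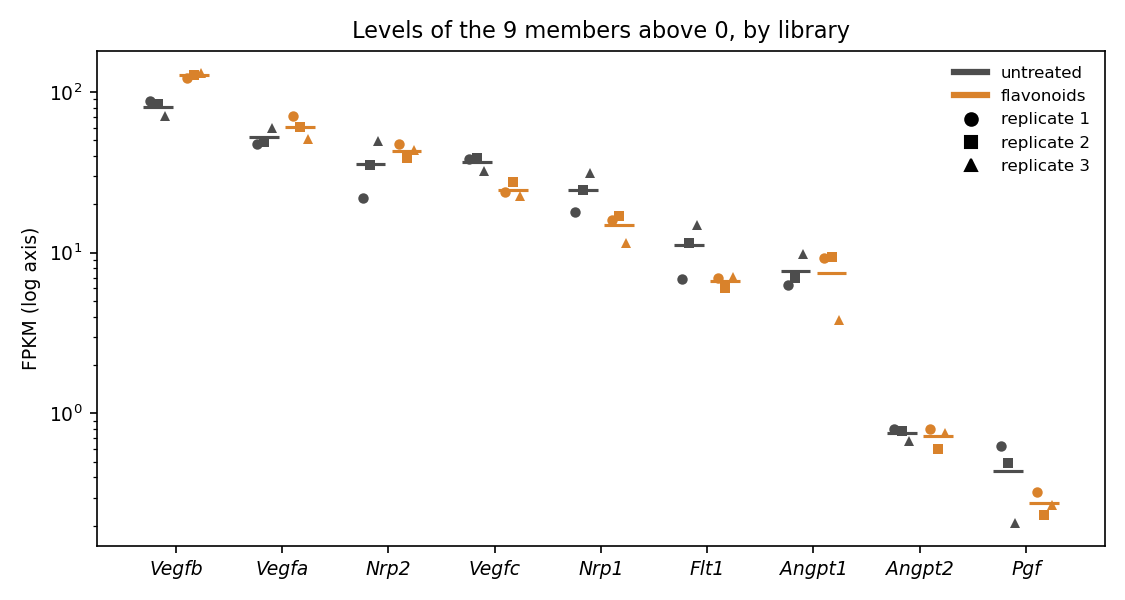
FPKM of the 9 members above 0 on a log axis, ordered by mean over 6 libraries, with 1 point per library (grey untreated, orange flavonoids, marker shape by replicate) and a bar at each group mean. Vegfb stands highest in both groups, the groups of Vegfb, Vegfc and Nrp1 do not overlap, and Angpt2 and Pgf lie under 1 FPKM in every library.

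The levels spanned more than the changes did. In untreated cells Vegfb came first with 81.0 ± 8.70 FPKM (SD, n = 3), followed by Vegfa with 52.1 ± 6.76, Vegfc with 36.5 ± 3.81, Nrp2 with 35.7 ± 13.9, Nrp1 with 24.6 ± 6.68, Flt1 with 11.1 ± 4.06 and Angpt1 with 7.71 ± 1.90 FPKM. Ranges of the neighbours Vegfc and Nrp2, Nrp2 and Nrp1, and Flt1 and Angpt1 overlapped, so their order is not fixed beyond the spread. In treated cells Nrp2 stood above Vegfc with no overlap (38.6 to 47.7 against 22.4 to 27.5 FPKM), and only Angpt1 and Flt1 overlapped as neighbours. Angpt2 and Pgf were under 1 FPKM in each library, and Kdr was listed at 0 in all 6.

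Among the ligands, Vegfb encodes VEGF-B, which binds Flt1 and Nrp1 and has been linked to fatty acid handling by endothelium. It measured 87.4, 84.4 and 71.1 FPKM in untreated replicates 1, 2 and 3, and 123, 128 and 131 FPKM in the treated ones. Every treated library stood above every untreated one, and the treated values lay close together. The means differed 1.57-fold (log2 change 0.65, SE 0.12, limma adjusted p = 0.0142). Fragments per library ran from 2303 to 4344. Vegfb has an implied length of 1290 bases, so the deviation of short genes given above bears on it. With each library's trend over gene length removed, its log2 change was 0.61 (limma adjusted p = 0.000991). The gene lies on chromosome 19 at 6982473 to 6987651, minus strand (positions throughout are from GENCODE M21 for GRCm38, which is mm10). Its estimate stayed between 0.56 and 0.71 over the 25 other settings tried. The adjusted p rose to 0.0819 without untreated replicate 2, and to 0.0667, 0.0679 and 0.0519 without flavonoids replicates 1, 2 and 3 (0.000991 to 0.0819 over all settings).

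Vegfc encodes VEGF-C, the main lymphatic growth factor. Its values were 38.5, 38.8 and 32.1 FPKM in untreated cells and 23.7, 27.5 and 22.4 FPKM in treated cells, replicates in order. All treated libraries lay below all untreated ones. The treated mean was 1.48-fold lower (log2 change -0.55, SE 0.13, limma adjusted p = 0.0315). Vegfc is on chromosome 8 at 54077606 to 54187096, plus strand, and was covered by 1045 to 1709 fragments per library. Its adjusted p rose to 0.166 without untreated replicate 2, to 0.131, 0.0644 and 0.0962 without flavonoids replicates 1, 2 and 3, and to 0.0694 without the filter on low values (0.0029 to 0.166 over all settings, with estimates from -0.64 to -0.49).

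The promoter sequences of these ligand genes, the pair that passed the test in opposite directions, are shown for comparison. Each is the 250 bases before the RefSeq transcription start (GRCm38.p6), 5′ to 3′ on the gene's own strand, at chr19:6987652-6987901 for Vegfb (minus strand) and chr8:54077282-54077531 for Vegfc (plus strand). Capitals mark the GC box GGGCGG, the core to which Sp1 binds, on either strand.
Vegfb: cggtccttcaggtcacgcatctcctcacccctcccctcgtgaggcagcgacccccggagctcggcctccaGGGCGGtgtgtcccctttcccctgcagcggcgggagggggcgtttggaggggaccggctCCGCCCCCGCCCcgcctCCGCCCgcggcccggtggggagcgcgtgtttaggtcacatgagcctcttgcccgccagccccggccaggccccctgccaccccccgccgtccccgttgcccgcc
Vegfc: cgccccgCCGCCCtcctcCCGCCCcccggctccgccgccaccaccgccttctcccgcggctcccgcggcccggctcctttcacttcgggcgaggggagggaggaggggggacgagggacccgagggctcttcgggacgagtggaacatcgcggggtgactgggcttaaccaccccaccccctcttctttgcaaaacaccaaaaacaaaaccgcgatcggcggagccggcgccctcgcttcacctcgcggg
The Vegfb sequence holds 4 GC boxes, 2 of them joined end to end, and the Vegfc sequence holds 2, with a G+C content of 76.4% and 71.6%. In the full RefSeq windows, which run slightly past the start, GGGCGG was in 9 of the 10 windows of the 8 members with an entry (Vegfa, Vegfb, Vegfc, Pgf, Flt1, Kdr, Nrp1 and Nrp2), Vegfa and Pgf having 2 windows each, and in 35.9% of 32544 windows of all genes. The window without it was the second of Pgf. Median G+C over all windows was 53%, and the 8 members' main windows ranged from 60.7% for Kdr to 75.3% for Vegfb. The core of the hypoxia response element, ACGTG on either strand, was found in 1 of the 10 windows, the second of Vegfa, and in 19.7% of all windows. The ATF4 response element TGATGNAA was in none of the members' windows and in 3.91% of all windows. Angpt1 and Angpt2 had no entry.

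Vegfa encodes VEGF-A, the central angiogenic factor, which is induced by low oxygen and by amino acid stress. It measured 47.5, 49.0 and 59.9 FPKM in untreated cells and 70.7, 60.7 and 50.7 FPKM in treated cells. The groups overlapped, since flavonoids replicate 3 lay below untreated replicate 3. The log2 change was 0.21 with a 95% interval of -0.14 to 0.55 (limma adjusted p = 0.418), which leaves room for an increase of up to that size. Vegfa lies on chromosome 17 at 46016993 to 46032369 and was covered by 3706 to 6245 fragments per library. The table has 1 value per gene, so its splice forms cannot be told apart.

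Pgf, the placental growth factor gene (chromosome 12, 85166635 to 85177790), was too weak to be tested. It stood at 0.626, 0.489 and 0.208 FPKM in untreated cells and 0.324, 0.234 and 0.270 FPKM in treated cells. These values rest on 11 to 29 fragments per library, and the groups overlapped. The exact Poisson 95% interval for counting error alone was 0.419 to 0.899 FPKM in untreated replicate 1 and 0.104 to 0.372 FPKM in untreated replicate 3.

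**Figure D2:**
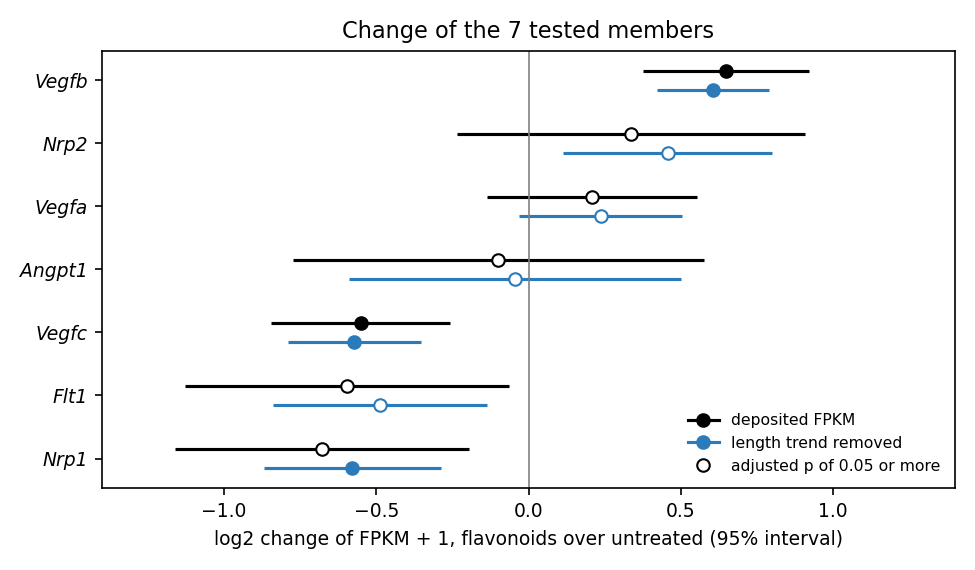
Log2 change (flavonoids over untreated) of the 7 tested members with 95% intervals, from the deposited FPKM (black) and after removal of each library's trend over gene length (blue); open circles did not pass. Vegfb at 0.65 and Vegfc at -0.55 passed in both, and Nrp1 passed only after the trend was removed, with a smaller estimate and a narrower interval.

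Shares of the ligand pool do not depend on how libraries are scaled, but the length deviation of the libraries bears on them. Implied lengths were 1290 bases for Vegfb, 1893 for Vegfc and 3554 for Vegfa. The shares were not computed with the length trend removed. Within the summed FPKM of Vegfa, Vegfb, Vegfc and Pgf, Vegfb made up 50.2%, 48.9% and 43.5% in untreated cells and 56.4%, 59.1% and 64.1% in treated cells. Vegfc made up 22.1%, 22.5% and 19.6% in untreated cells and 10.9%, 12.7% and 10.98% in treated cells. Neither share overlapped between groups, and both gave p = 0.1 in a two-sided exact permutation test, the smallest that 3 libraries against 3 allow. The Vegfa share was 30.8 ± 5.14% and 28.5 ± 3.86% (SD, n = 3 per group, exact permutation p = 0.6). The summed FPKM of these 4 ligands was 170 ± 5.89 in untreated and 213 ± 7.26 in treated cells (SD, n = 3 per group, exact permutation p = 0.1).

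The remaining ligand of the family, Vegfd, is not among the 10 genes but outweighed each of them. It measured 228, 264 and 287 FPKM in untreated cells and 151, 156 and 169 FPKM in treated cells, with no overlap. Vegfd, on chromosome X at 164373378 to 164402650, encodes VEGF-D, the closest relative of VEGF-C, and fell by 0.70 on the log2 scale (SE 0.13, limma adjusted p = 0.0145). Its adjusted p was 0.0967 without untreated replicate 2 and 0.0843 and 0.0728 without flavonoids replicates 1 and 2 (0.00125 to 0.0967 over all settings). Counted as the fifth ligand, it held 60.3 ± 3.53% of the summed FPKM in untreated and 42.7 ± 2.31% in treated cells, while Vegfb held 19.0 ± 3.00% and 34.2 ± 0.861% (SD, n = 3 per group). With Vegfd included the sum over 5 ligands was lower in treated cells, 371 ± 2.87 against 430 ± 25.02 FPKM (exact permutation p = 0.1), the opposite direction to the sum over 4. The Vegfc share then overlapped between groups (8.53 ± 1.27% and 6.61 ± 0.710%, SD, n = 3 per group, exact permutation p = 0.2). The difference in the Vegfa share changed direction, to 12.1 ± 1.07% in untreated and 16.4 ± 2.82% in treated cells.

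**Figure D3:**
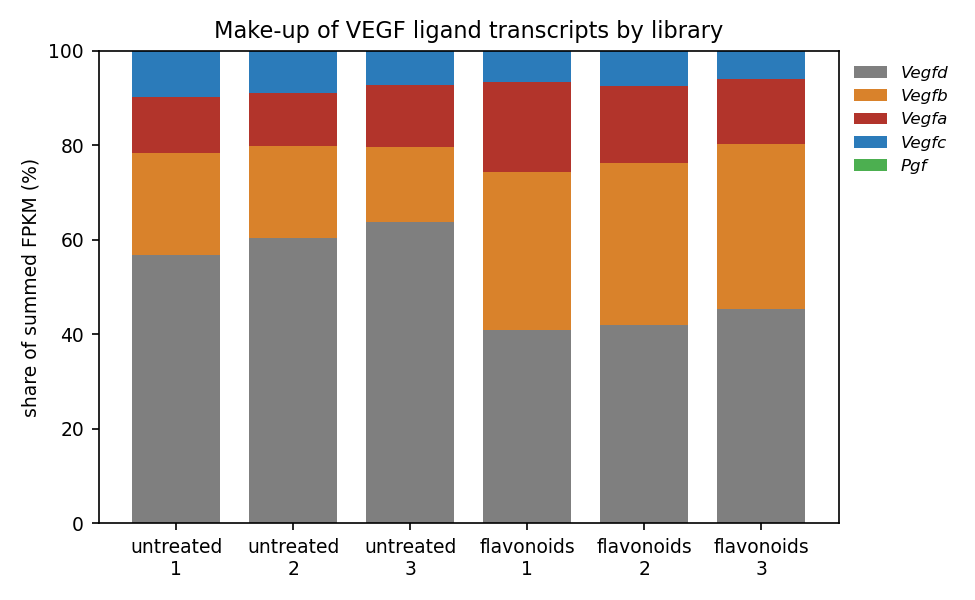
Share of each VEGF ligand in the summed FPKM of the 5 ligand genes, with 1 bar per library. Vegfd (grey) takes 56.7% to 63.7% of the untreated bars and 41.0% to 45.4% of the treated ones, Vegfb (orange) 15.8% to 21.8% and 33.3% to 35.01%, and Pgf, at most 0.156%, is too small to be seen.

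The receptors were unlike each other. Flt1 encodes the receptor for VEGF-A, VEGF-B and placental growth factor, and also a soluble form that traps ligand, which a value per gene does not separate. It measured 6.87, 11.5 and 14.96 FPKM in untreated cells and 7.01, 6.02 and 7.07 FPKM in treated cells. Untreated replicate 1 lay among the treated values, and the untreated spread exceeded the treated one (SD 4.06 and 0.592 FPKM, n = 3 per group). The log2 change was -0.60, SE 0.23, with limma adjusted p = 0.144. It passed without untreated replicate 1 (adjusted p = 0.0099, within 0.0099 to 0.355 over all settings). With the length trend removed the log2 change was -0.49 (adjusted p = 0.0513), and it then passed without untreated replicate 1 (0.0125) or flavonoids replicate 3 (0.0475). Flt1 lies on chromosome 5 at 147561604 to 147726011 and has an implied length of 6321 bases, so the length deviation of the libraries given above bears on it.

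Kdr, the main signalling receptor for VEGF-A, was listed at 0 in all 6 libraries. It lies on chromosome 5 at 75932827 to 75978458, next to Kit, which was also at 0, and near Pdgfra, which reached 148 to 274 FPKM. Of its 20 nearest protein-coding genes, 12 averaged 1 FPKM or more. Whether a 0 stands for no fragments or for a failed count is not given in the sources used here. Flt4 and Tie1, other receptors of the family, were also listed at 0, and Tek, the angiopoietin receptor, stood at 0.109 to 0.160 FPKM in untreated and 0.238 to 0.249 FPKM in treated cells, on 12 to 30 fragments per library.

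Nrp1 encodes neuropilin-1, a co-receptor for VEGF-A and semaphorin 3A. It measured 17.9, 24.6 and 31.2 FPKM in untreated cells and 15.9, 16.98 and 11.5 FPKM in treated cells. All treated values lay below all untreated ones, although flavonoids replicate 2 and untreated replicate 1 were close. The treated mean was 1.66-fold lower, but the difference did not pass (log2 change -0.68, SE 0.21, limma adjusted p = 0.0799). Non-overlapping groups were found for 3 of the 7 tested members and for 34.3% of all tested genes. Nrp1 lies on chromosome 8 at 128358604 to 128503363, with an implied length of 5959 bases. After removal of the length trend it was lower with an adjusted p of 0.0113 (log2 change -0.58), where 21.8% of all tested genes were called, although not once untreated replicate 2 was also left out (0.0536). It also passed without untreated replicate 1 (adjusted p = 0.0172), within 0.0092 to 0.235 over all settings.

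Nrp2 encodes neuropilin-2, a co-receptor for VEGF-C and semaphorin 3F. Its values were 22.0, 35.4 and 49.7 FPKM in untreated cells and 47.7, 38.6 and 43.4 FPKM in treated cells. The untreated libraries spread over more than the whole treated range. The log2 change was 0.34 with a 95% interval of -0.23 to 0.91 (limma adjusted p = 0.431). It lay at 0.04 without untreated replicate 1 and at 0.61 without untreated replicate 3. With the length trend removed it was 0.46 (adjusted p = 0.0593), and it then passed without untreated replicate 3 (0.0216) or flavonoids replicate 2 (0.0462), within 0.0216 to 0.891 over all settings. Nrp2 is on chromosome 1 at 62703285 to 62818695 with an implied length of 6783 bases. The antisense gene Gm29083 overlaps it, as Gm17473 does Angpt1, and Mcph1 overlaps Angpt2 on the other strand. The use of strand in counting is not given in the sources used here, so reads of such partners cannot be told apart.

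Both neuropilin genes are long, and their ratio within a library does not depend on how that library is scaled. The ratio of Nrp1 to Nrp2 FPKM was 0.812, 0.697 and 0.628 in untreated replicates 1, 2 and 3 and 0.333, 0.440 and 0.266 in the treated ones. The lowest untreated ratio lay above the highest treated one. The mean log2 ratio was -0.50 ± 0.19 in untreated and -1.56 ± 0.36 in treated cells (SD, n = 3 per group), a difference of -1.06 with p = 0.1 in the two-sided exact permutation test, again the smallest possible. Leaving out any 1 library gave differences from -1.25 to -0.89. Removing the length trend gave -1.04, but on log2(FPKM + 1), so this value is not on the same scale as the -1.06.

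**Figure D4:**
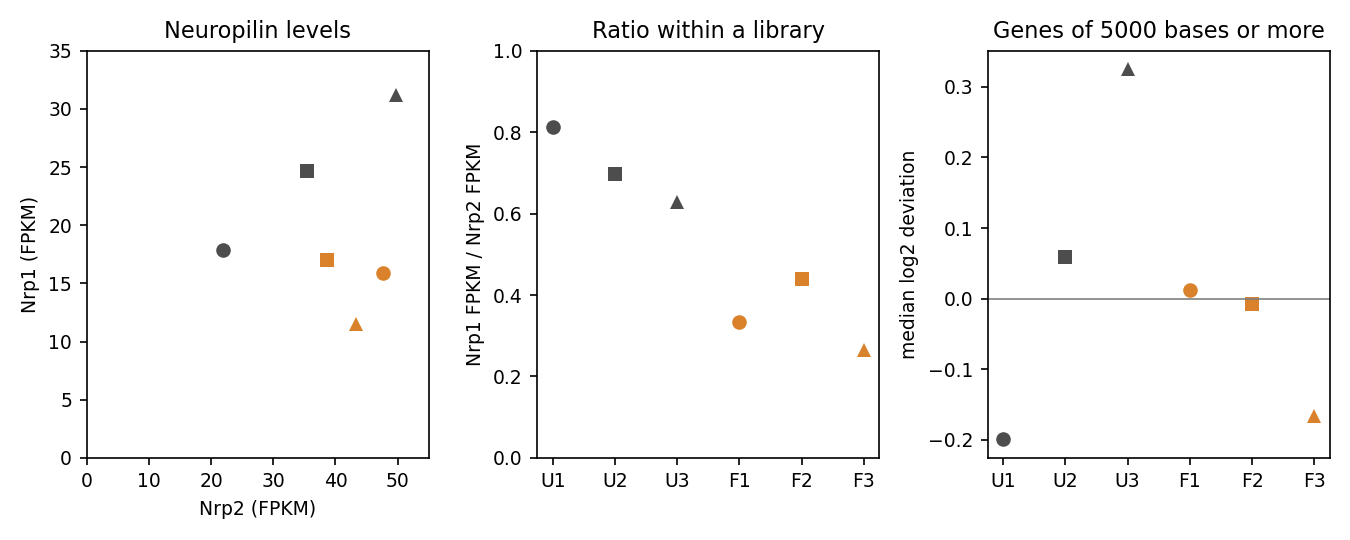
Left, Nrp1 against Nrp2 FPKM in each library (grey untreated, orange flavonoids; circle, square and triangle for replicates 1, 2 and 3); middle, their ratio by library (U untreated, F flavonoids); right, the median log2 deviation of the 2365 genes of at least 5000 bases. The ratio is 0.628 to 0.812 in untreated and 0.266 to 0.440 in treated libraries, whereas the deviation of long genes runs from -0.20 to 0.33 within the untreated group alone.

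The angiopoietins differed in level, and the values of each overlapped between groups. Angpt1 encodes the ligand that activates Tek and stabilises vessels. It measured 6.33, 6.92 and 9.88 FPKM in untreated cells and 9.27, 9.41 and 3.81 FPKM in treated cells. Flavonoids replicate 3 stood apart from the other treated libraries and below all untreated ones. The log2 change was -0.10 with a 95% interval of -0.77 to 0.58 (limma adjusted p = 0.864), and it became 0.27 without flavonoids replicate 3 and 0.07 without untreated replicate 3. The gene is on chromosome 15 at 42424723 to 42676977. Angpt2, whose product can oppose Angpt1 at Tek (chromosome 8, 18690263 to 18741562), was not tested. Its values of 0.801, 0.780 and 0.678 FPKM in untreated and 0.797, 0.604 and 0.759 FPKM in treated cells overlapped and rested on 57 to 71 fragments each.

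Among 51 other genes of the pathway in the table, in 7 lists, 35 were tested, 2 rose and 5 fell, and their median log2 change was -0.23. Over all tested genes 4.86% rose and 5.13% fell, with a median of -0.02, and counts within lists of 2 to 8 genes are descriptions beside those shares. Of the class 3 semaphorins, ligands that share the neuropilins with VEGF, 2 of 5 tested members fell, with a median log2 change of -0.50. Sema3c went from 116, 132 and 200 FPKM to 81.5, 85.5 and 41.6 FPKM (log2 change -1.12, SE 0.29, limma adjusted p = 0.0456), and Sema3f, a ligand of Nrp2, from 51.2, 56.2 and 63.6 FPKM to 37.5, 38.3 and 44.4 FPKM (adjusted p = 0.0413). Both stood lower in all treated libraries than in any untreated one, and 34.3% of all tested genes did not overlap between groups. The adjusted p of Sema3c reached 0.0646 without untreated replicate 3, 0.13 without untreated replicate 2 and 0.0877, 0.0585 and 0.111 without flavonoids replicates 1, 2 and 3, and that of Sema3f 0.169 without untreated replicate 2 and 0.169, 0.156 and 0.0594 without flavonoids replicates 1, 2 and 3 (0.00594 to 0.155 and 0.00364 to 0.169 over all settings). Both calls were also lost without the filter on low values (0.155 for Sema3c and 0.0803 for Sema3f), on the TPM scale (0.0618 and 0.0686) and without the variance trend (0.0519 and 0.0551), and that of Sema3f under median-ratio scaling (0.0537). Of 5 tested plexins, the signalling partners of neuropilins, 0 passed in limma and in voom, and 0 had an unadjusted p under 0.05. The share of all tested genes with such an unadjusted p was not computed.

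In the PDGF family, whose ligands are built like the VEGFs, 2 of 5 tested members fell. Pdgfa went from 33.2, 29.1 and 30.4 FPKM to 16.7, 19.2 and 16.0 FPKM (log2 change -0.80, SE 0.12, limma adjusted p = 0.0067) and passed in all 25 other settings. Pdgfb, near 3.36 FPKM in untreated and 2.03 FPKM in treated cells, passed at 0.0387 but not in 17 of 24 other settings, among them removal of the length trend (adjusted p = 0.153, within 0.0167 to 0.389 over all settings), no filter (0.0954), the TPM scale (0.0607), quantile normalization (0.0944) and leaving out untreated replicate 2 (0.161), untreated replicate 3 (0.0631) or flavonoids replicate 1 (0.164), 2 (0.127) or 3 (0.0637). Of the angiopoietin-like proteins, secreted relatives of the angiopoietins that do not bind Tek, Angptl6 rose among 2 tested (9.01, 6.34 and 7.10 FPKM untreated; 25.9, 22.6 and 23.3 FPKM treated). Its log2 change of 1.56 (adjusted p = 0.0018) passed in all 25 other settings. Of 8 tested genes that process, bind or pass on these ligands, 0 passed in limma and in voom, and 4 had an unadjusted p under 0.05. The share of all tested genes with such an unadjusted p was not computed, so this count has no background to be read against. Of 8 known regulators of Vegfa transcription, Atf4 rose (log2 change 0.68, adjusted p = 0.0408), although not without the filter on low values (0.125), untreated replicate 2 (0.183) or flavonoids replicate 1 (0.156), 2 (0.13) or 3 (0.113), within 0.000832 to 0.183 over all settings. Outside the naming rule, and picked with values seen, Hif1a and Epas1 encode the hypoxia-inducible factors. Hif1a stood at 29.4 ± 3.998 FPKM untreated and 34.0 ± 9.55 FPKM treated, and Epas1 at 12.1 ± 3.43 FPKM untreated and 13.3 ± 2.16 FPKM treated (SD, n = 3 per group). Neither passed in limma, with adjusted p of 0.643 and 0.679.

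For the members that passed, the genes of most similar profile were found by Pearson's r of log2(FPKM + 1) over the 6 libraries, among genes averaging 5 FPKM or more. Nearest to Vegfb were Ap5s1, a subunit of an adaptor complex of endosomes, Tmem55b, a lysosomal membrane protein gene, and Pes1, a ribosome assembly factor, each with r of 0.998 to 0.999. Nearest to Vegfc were Gas2, a cytoskeletal protein gene, Uap1, an enzyme of amino sugar synthesis, and Rom1, a membrane protein gene, with r of 0.993 to 0.997. Such values are common over so few libraries: 431 tested genes reached an r of 0.95 with Vegfb and 162 with Vegfc. Pearson's r takes no account of the size of a change. The log2 changes of Ap5s1, Tmem55b and Pes1 were 0.23, 0.48 and 0.67 (limma adjusted p = 0.212, 0.0304 and 0.0129). Those of Gas2, Uap1 and Rom1 were -0.77, -0.23 and -0.39 (limma adjusted p = 0.0254, 0.234 and 0.0731).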

How the data were processed

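RNA was profiled in 6 libraries, 3 untreated and 3 with flavonoids. Per the labels' protocols, TRIzol RNA and a TruSeq RNA kit were used. Per the submitters' processing notes, FastQC and HISAT2 with the build mm10 were used, without versions. Counting tool, annotation and strand setting: not given in the sources used here. What the authors deposited is a single FPKM table, 1 column for each sample.

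Whole fragments were recovered from the steps between FPKM values (tolerance 0.005), for all 22235 genes above 0. They give depth, counting error and the implied length used for the length trend, and are the input of the voom setting. The main fits used the FPKM values. Implied length is that which the step of each gene gives. FPKM plus 1 was log2-transformed, and the 11464 genes averaging 1 FPKM or more were tested two-sided with limma 3.58.1 (trended empirical Bayes, R 4.3.3). On this scale changes of weak genes are understated. Ratios and shares were compared by exact permutation. Settings fixed first were the pseudocount, filter, scaling, variance model, replicate block, removal of each library's trend over implied length (loess, span 0.5), voom on recovered fragments and leaving out each library. The length trend with each library left out, Vegfd as the fifth ligand, and the trend on the neuropilin ratio were added after seeing the data. The scripts were tested on simulated data. Members and lists were chosen with earlier results of these data known. Named genes are all members, up to 3 called genes of each list by smallest p, and the 3 genes most similar to each called member, leaving out unnamed gene models. Receptors and marker genes outside this rule are named for their role, with values seen. Python 3.11.15, numpy 2.4.6, pandas 2.3.3 and matplotlib 3.10.9 were used. Promoters are from RefSeq on GRCm38.p6, and 8 of 10 members matched by symbol.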

Additional observations from a re-analysis of the deposited data

How the results depend on the processing

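The counts of 1 member higher and 1 lower moved with the settings. Members higher numbered 0 with the replicate block. With a library left out they numbered 0 to 1, and 1 to 2 where the length trend was also removed. Members lower numbered 0 without the filter on low values and 0 with the replicate block, and 2 without the length trend, also with the block. With a library left out they numbered 0 to 3, and 1 to 3 where the length trend was also removed. The 7 other pathway genes called became 4 without the filter, 4 on the TPM scale and 3 with the replicate block. They became 14 without the length trend and 12 without it and with the block. With a library left out they numbered 2 to 14, and 9 to 16 where the length trend was also removed. Over all genes 1145 calls became 641 without the filter and 457 with the replicate block. They became 2494 without the length trend and 2049 without it and with the block. With a library left out they numbered 146 (without untreated replicate 2) to 1709, and 1281 to 2529 where the length trend was also removed. Leaving out a library leaves fewer samples, and the cause of the other moves was not tested. Libraries of the same number did not deviate together (r of -0.14, -0.12 and -0.20 for replicates 1, 2 and 3). The values compared still held the length trend, so these r cannot exclude a pairing, which the labels do not state. With the block, limma adjusted p was 0.0507 for Vegfb, 0.0545 for Vegfc, 0.125 for Sema3c, 0.0586 for Sema3f, 0.107 for Pdgfb and 0.0748 for Atf4.

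Vegfa, Vegfb, Vegfc, Flt1, Nrp1 and Nrp2 kept their direction in all 25 other settings. Angpt1 did not, with log2 changes of -0.29 to 0.27 on leaving out a library, and -0.22 to 0.29 where the length trend was also removed. The difference in the Vegfa share, -2.32 percentage points, ran from -4.34 to 0.634 on leaving out a library and was 4.24 with Vegfd as the fifth ligand, and that in the Vegfc share went from -9.87 to -1.92 with Vegfd included. Depth limits Pgf, with 11 to 29 fragments per library.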
